A study of Caenorhabditis elegans with 33 samples.

Results

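The 9 genes described here build the eggshell of *Caenorhabditis elegans*: chs-1, egg-1, egg-2, egg-3, cbd-1, perm-2, perm-4, cpg-1 and cpg-2. They were chosen by name for this role and matched by gene symbol in every library. All 9 were found among the 18811 symbols in the files, and all 9 were among the 14696 genes kept by the filter on low counts. RNA came from whole synchronized adults of N2, the wild-type laboratory strain, that had eaten torY, yccU, crl, iaaA, purH, ycdC, ycgJ, yghZ, yjgU or ypdF mutant bacteria, or BW25113, the *Escherichia coli* strain that served as the control diet. Each of the 11 diets had 3 libraries, 33 in all. The labels name the bacteria eaten as the only difference between groups. The titles of 1 group read yjgU where its treatment labels read yigU, so which gene that strain lacks is uncertain. The labels give neither the age of the adults nor the origin of the replicates. The p-values therefore reflect the spread among these libraries alone, which may be technical.

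From the outside inwards, the nematode eggshell has a vitelline layer, a chitin layer, a layer of chondroitin proteoglycans and a lipid permeability barrier. The layers inside the vitelline layer are laid down within minutes of fertilization. Eggshell proteins are made in growing oocytes, and some are stored in the plasma membrane or in cortical granules until sperm entry. In whole worms the messages of eggshell genes therefore come from the oocytes of the gonad and from embryos held in the uterus. In bulk RNA, fewer oocytes and less RNA per oocyte cannot be told apart.

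The parts played by the members are background knowledge. CHS-1 is the chitin synthase of the eggshell. EGG-1 and EGG-2 are related transmembrane proteins of the oocyte surface with LDL receptor repeats, and together they are needed for sperm entry and for making the shell. EGG-3 is an inactive phosphatase-like protein that holds CHS-1 and the kinase MBK-2 at the oocyte cortex. CBD-1 is a chitin-binding protein of the vitelline layer, and PERM-2 and PERM-4 are vitelline layer proteins that depend on it. CPG-1 and CPG-2 are chitin-binding core proteins that carry chondroitin and form the proteoglycan layer.

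In Ensembl's annotation of the WBcel235 assembly all 9 are protein-coding genes, spread over 4 chromosomes. chs-1 (WBGene00000496) lies on chromosome I from 7554855 to 7559916 and egg-3 (WBGene00009701) on II from 10882408 to 10884441. On chromosome III are cpg-1 (WBGene00000465, 4489359 to 4491392), egg-1 (WBGene00015083, 5728180 to 5730159), egg-2 (WBGene00019811, 7058527 to 7060583) and cpg-2 (WBGene00015102, 7102092 to 7103990). On chromosome IV are cbd-1 (WBGene00010351, 11372991 to 11377627), perm-4 (WBGene00016638, 1121494 to 1125107) and perm-2 (WBGene00016636, 1126790 to 1128865). perm-2 and perm-4 are neighbours on opposite strands, transcribed away from each other with 1682 bases and 0 coding genes between them. The related egg-1 and egg-2 are not neighbours: 269 coding genes lie between them. Exons of chs-1, egg-1, egg-3 and perm-2 share 5, 42, 21 and 25 bases with an overlapping gene, and the strandedness of the libraries is not stated. egg-1 and egg-2 are paralogs, and how reads fitting both were assigned was not given, so the split of counts between this pair is uncertain.

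Libraries held 20.5 to 22.7 M expected counts (estimated reads per gene), and 15298 to 16906 genes were above 0. Across genes, which are not independent replicates, the correlation of log2 CPM between replicates had a median of 0.956. purH replicate 1 stood apart, with r = 0.821 and 0.869 against the other purH libraries.

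Eggshell messages were abundant, and a few genes made up most of them. Levels are compared between genes on the deposited TPM scale (a share of all transcripts that corrects for gene length). Together the 9 genes held between 0.528% and 1.59% of all TPM in a library, with a median of 0.992%. perm-2 alone held 39.5% to 67.5% of the TPM of the 9 genes and ranked 36 among all genes by median level. Median levels over the 33 libraries were 5193 TPM for perm-2, 1767 TPM for perm-4, 1593 TPM for cpg-2 and 969 TPM for cpg-1. cbd-1, the other vitelline layer gene, was lower at 228 TPM. The genes of the oocyte surface and cortex followed, with 162 TPM for egg-1, 41.7 TPM for egg-3 and 38.6 TPM for egg-2, and the chitin synthase gene chs-1 came last at 17.0 TPM.

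**Figure D1:**
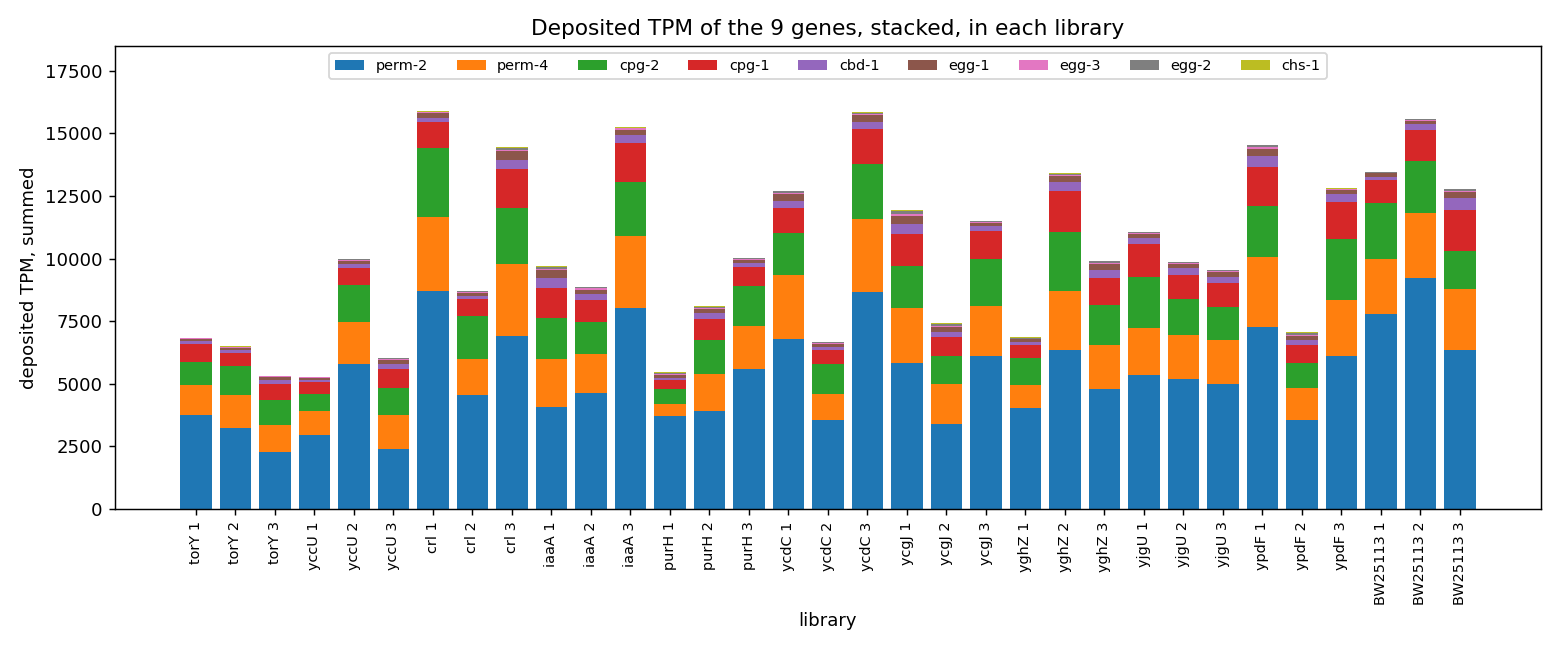
Stacked bars give the deposited TPM of the 9 genes in each of the 33 libraries, with the 10 mutant diets left of BW25113. The bars of torY are low in all 3 libraries and those of BW25113 are high in all 3, while most other diets spread more widely among replicates and yjgU does not.

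The summed share was 0.621% ± 0.0790 of all TPM in torY and 0.709% ± 0.252 in yccU, against 1.39% ± 0.146 in BW25113 (SD, n = 3 each). The 3 torY libraries ranged from 0.532% to 0.682% and the 3 BW25113 libraries from 1.28% to 1.56%, so these groups did not overlap. yccU ranged from 0.528% to 0.997%, also below BW25113 in all 3 libraries. The libraries of purH (0.546% to 1.00%), ycgJ (0.740% to 1.19%) and yjgU (0.954% to 1.11%) lay below it too, so a low summed share was not particular to torY and yccU.

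The first question was which members differed between a mutant diet and BW25113. Levels of 1 gene across diets are given as CPM (counts scaled to library size with TMM factors). A gene is said to fall or rise where edgeR's quasi-likelihood test, fitted to all 33 libraries, gave an adjusted p (Benjamini-Hochberg) under 0.05 with all 14696 genes counted. In torY 2 of the 9 members fell, 0 rose and 7 did not pass, where 5.26% of all genes tested fell, 9.66% rose and 14.9% were called in either direction. In yccU 0 of the 9 passed by edgeR or DESeq2, where 2.62% of all genes were called by edgeR, 0.122% lower and 2.5% higher. At an unadjusted p under 0.05, 4 members were lower in torY, where 15.9% of all genes were, and 1 in yccU, where 8.87% of all genes were. In the other 8 mutant diets 0 members passed by edgeR, 0 were at an unadjusted p under 0.05 and 0 passed by DESeq2, where 0% of all genes were called by edgeR. The share of all genes lower at that unadjusted p was 0.293% in crl and iaaA, 0.354% in ycdC, 0.367% in ypdF, 1.21% in ycgJ, 1.74% in purH, 1.84% in yjgU and 1.87% in yghZ. All 10 comparisons share the 3 BW25113 libraries.

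**Figure D2:**
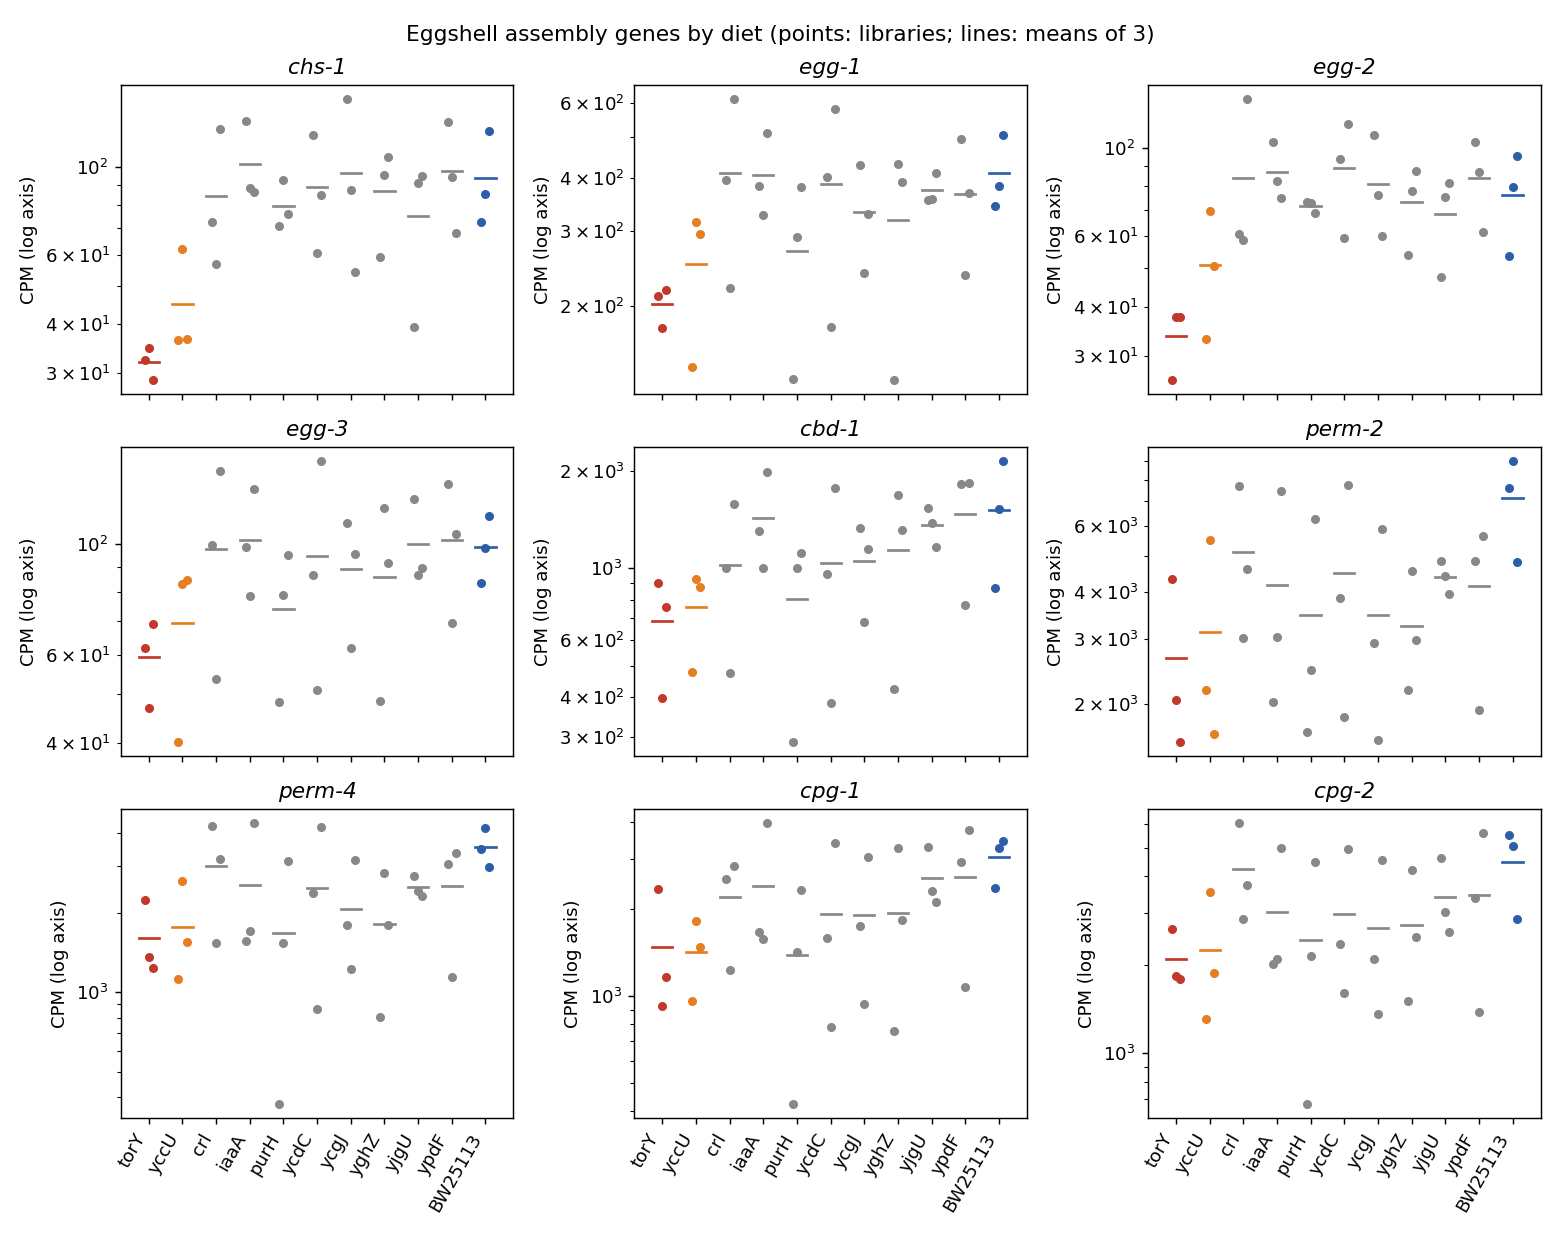
Each panel shows 1 gene: points are the CPM of single libraries on a log axis, lines are means of 3, and BW25113 is at the right. For chs-1 and egg-2 the 3 torY libraries lie below every library of the other mutants except yccU and below BW25113. For perm-2, perm-4, cpg-1 and cpg-2 the other mutants spread over most of the axis.

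chs-1, the chitin synthase gene, fell in torY. It stood at 32.5, 34.8 and 28.7 CPM in torY, against 72.7, 85.4 and 124 CPM in BW25113. All torY libraries lay below all BW25113 libraries, and none of the 24 libraries of the other 8 mutants (39.2 to 149 CPM) was as low as the highest torY library. The log2 fold change was -1.55 (SE 0.40, adjusted p = 0.0194), a level 2.93-fold lower. In yccU it was at 36.4, 62.2 and 36.5 CPM, below BW25113 in all 3 libraries, with a log2 fold change of -1.06 (SE 0.39) that did not pass (adjusted p = 0.0952).

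egg-2, 1 of the pair of oocyte surface genes, fell in torY as well. Its levels were 26.1, 37.7 and 37.6 CPM in torY, against 53.7, 79.8 and 95.2 CPM in BW25113, with no overlap. The 24 libraries of the other 8 mutants ran from 47.5 to 133 CPM, all above the highest torY library. The log2 fold change was -1.17 (SE 0.35, adjusted p = 0.0321), a level 2.25-fold lower. yccU libraries held 33.1, 69.3 and 50.4 CPM, of which 2 were below the BW25113 libraries (log2 fold change -0.58, SE 0.35, adjusted p = 0.273).

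Both torY calls depended on single libraries. Without BW25113 replicate 2 the edgeR adjusted p was 0.0711 for chs-1 and 0.0985 for egg-2, and without BW25113 replicate 3 it was 0.0648 and 0.101. Without torY replicate 1 it was 0.0537 and 0.0983, and without torY replicate 3 it was 0.0800 and 0.0881. The log2 fold change itself stayed between -1.71 and -1.30 for chs-1 and between -1.37 and -0.98 for egg-2 when any 1 of the 6 libraries was left out. Without BW25113 replicate 2 edgeR called 0 genes of the whole table in torY, with 4017 at an unadjusted p under 0.05, so this library bears on every torY call given here.

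egg-1, the other gene of the oocyte surface pair, had 210, 177 and 218 CPM in torY, against 343, 382 and 506 CPM in BW25113. These groups did not overlap either, but the log2 fold change of -1.02 (SE 0.46) did not pass over all genes (edgeR adjusted p = 0.110). In an edgeR fit of the 6 libraries alone the adjusted p was 0.0318. That fit called 3834 genes over the whole table, against 2193 in the fit of all 33 libraries. In yccU egg-1 had 143, 315 and 295 CPM, below BW25113 in all 3 libraries (log2 fold change -0.71, SE 0.46, adjusted p = 0.309). Unlike chs-1 and egg-2, it had libraries of other mutants at or below the torY levels: 3 of 24 were below the highest torY library.

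egg-3, which anchors the chitin synthase at the cortex, showed the log2 fold change nearest to 0 of the 9 genes in torY. It had 62.0, 46.9 and 69.2 CPM in torY, against 83.4, 98.2 and 114 CPM in BW25113, again without overlap. The log2 fold change was -0.73 (SE 0.40, edgeR adjusted p = 0.188). In yccU the levels were 40.1, 83.3 and 84.7 CPM, and replicate 3 lay within the range of BW25113 (log2 fold change -0.51, SE 0.40, adjusted p = 0.407).

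cbd-1, the chitin-binding protein of the vitelline layer, was the only member whose torY and BW25113 libraries overlapped. It had 903, 398 and 759 CPM in torY, against 869, 1523 and 2153 CPM in BW25113. The log2 fold change of -1.14 (SE 0.58) did not pass (edgeR adjusted p = 0.150). yccU had 477, 926 and 878 CPM, of which 1 library was below BW25113 (log2 fold change -0.995, SE 0.57, adjusted p = 0.256).

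perm-2, a vitelline layer gene and the most abundant member, had 4333, 2055 and 1582 CPM in torY, against 7584, 8988 and 4797 CPM in BW25113. The groups did not overlap, and the log2 fold change was -1.42 (SE 0.63, edgeR adjusted p = 0.105), next in size to that of chs-1 but with a wider error. On the deposited TPM values, limma called perm-2 in torY (log2 fold change of TPM + 1 -1.35, adjusted p = 0.0181) and called neither chs-1 (adjusted p = 0.125) nor egg-2 (adjusted p = 0.214). yccU had 2188, 5511 and 1659 CPM, and replicate 2 lay within the BW25113 range (log2 fold change -1.19, SE 0.63, adjusted p = 0.217). Without yccU replicate 2 the log2 fold change was -1.89 (adjusted p = 0.0701).

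perm-4, the vitelline layer gene next to perm-2, had 2238, 1362 and 1231 CPM in torY, against 3491, 4190 and 2984 CPM in BW25113. The yccU levels were 1123, 2634 and 1550 CPM. Both diets lay below BW25113 in all 3 libraries, with log2 fold changes of -1.14 (SE 0.63, edgeR adjusted p = 0.185) in torY and -1.01 (SE 0.63, adjusted p = 0.292) in yccU, neither of which passed. The ratio of perm-2 to perm-4 TPM was 2.57 ± 0.541 in torY and 2.78 ± 0.903 in yccU, against 3.22 ± 0.520 in BW25113 (SD, n = 3 each), and the libraries of each mutant diet overlapped with those of BW25113.

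The proteoglycan genes cpg-1 and cpg-2 had similar log2 fold changes in both diets, and neither passed. cpg-1 had 2347, 923 and 1170 CPM in torY and 963, 1830.5 and 1485 CPM in yccU, against 2379, 3274 and 3445 CPM in BW25113. Neither mutant diet overlapped with BW25113, although torY replicate 1 lay just under BW25113 replicate 1. The log2 fold changes were -1.03 (SE 0.62, edgeR adjusted p = 0.220) in torY and -1.09 (SE 0.62, adjusted p = 0.252) in yccU. cpg-2 had 2641, 1826 and 1787 CPM in torY and 1307, 3544 and 1879 CPM in yccU, against 5505, 5060 and 2866 CPM in BW25113. torY lay below BW25113 throughout, and yccU replicate 2 lay within its range. The log2 fold changes were -1.10 (SE 0.61, adjusted p = 0.189) in torY and -0.997 (SE 0.61, adjusted p = 0.285) in yccU.

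Across the list, 8 of 9 members had all torY libraries below all BW25113 libraries, where 21.7% of all genes tested did. For yccU it was 4 of 9, where 15.2% of all genes did. All 9 log2 fold changes were negative in both comparisons, with medians of -1.14 in torY and -0.997 in yccU, while the medians over all genes were 0.01 and -0.01. These are descriptions of a named list, and the members are not independent of each other. Beside them, 18 oocyte markers had median log2 fold changes of -1.17 in torY and -1.06 in yccU, and the part of oocyte number in the eggshell values was not tested.

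**Figure D3:**
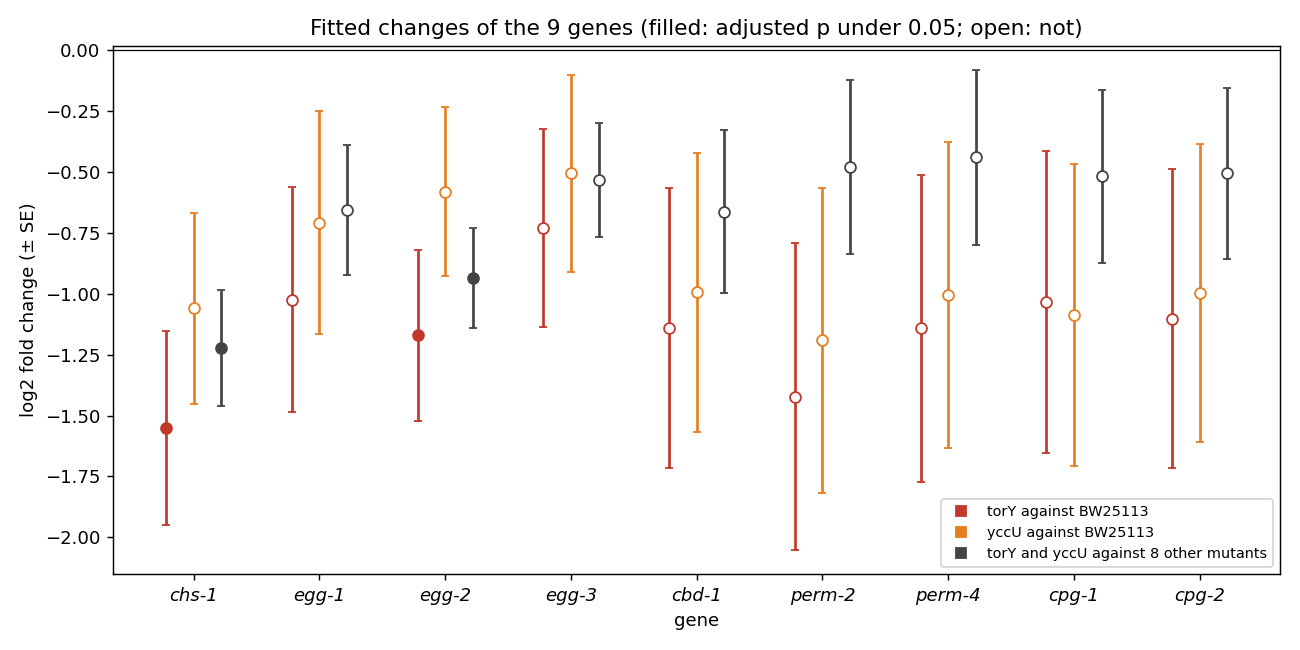
Points are fitted log2 fold changes with SE for 3 comparisons, and filled points have an adjusted p under 0.05. All points lie below 0, and the filled ones are chs-1 and egg-2 in torY against BW25113 and in torY and yccU against the other 8 mutants.

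A contrast that leaves the BW25113 libraries out set the mean of torY and yccU against the mean of the other 8 mutants. It was chosen with earlier results of these data known. By edgeR 2 members fell and 0 rose, where 18.3% of all genes tested fell, 22.3% rose and 40.6% were called in either direction, so calls were common in this contrast. At an unadjusted p under 0.05, 4 members were lower, where 23.3% of all genes were. The members that fell were again chs-1 (log2 fold change -1.22, SE 0.24, adjusted p = 0.00052) and egg-2 (-0.94, SE 0.21, adjusted p = 0.00156). Both calls stayed when any 1 mutant library was left out. Next were egg-1 (-0.66, SE 0.27, adjusted p = 0.0507), egg-3 (-0.53, SE 0.23, adjusted p = 0.0694) and cbd-1 (-0.66, SE 0.33, adjusted p = 0.111). Without purH replicate 1 these members also passed, and 5 of 9 were called, with no count over all genes given for that fit. For perm-2, perm-4, cpg-1 and cpg-2 the log2 fold changes lay between -0.52 and -0.44, with adjusted p from 0.248 to 0.334.

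The mean of the 10 mutant diets was also compared with BW25113, to ask for a shift shared by the mutants. All 9 log2 fold changes were negative, from -0.92 for perm-2 (SE 0.42) to -0.13 for egg-2 (SE 0.25). The number below 0 was 8 without BW25113 replicate 3 and 6 with limma on TPM. By edgeR 0 of 9 passed, with 1 (perm-2) lower at an unadjusted p under 0.05, where 2.74% of all genes were. DESeq2 also called 0, and 0% of all genes were called by edgeR. An edgeR F test for any difference among the 11 diets called 0 of the 9, where 3.16% of all genes were called. At an unadjusted p under 0.05 there were 2 members, where 3073 of all 14696 genes were. Those 2 members were chs-1 (adjusted p = 0.123) and egg-2 (adjusted p = 0.186). DESeq2's likelihood ratio test called this pair, and how many genes of the whole table it called is not given.

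In the other 8 mutant diets replicates of 1 diet often lay far apart. In purH all 9 log2 fold changes were negative, with a median of -0.88 and a range of -1.12 to -0.09, while the median over all genes was 0.18. Without BW25113 replicate 3, and with limma on TPM, 7 of the 9 were negative. Without purH replicate 1 the median was -0.40 and the range -0.67 to -0.07. That library held 378 CPM of perm-4, 425 CPM of cpg-1 and 673 CPM of cpg-2, the lowest of all 33 libraries for each. The same library had 71.1 CPM of chs-1, just under the lowest BW25113 library (72.7 CPM). Its 73.2 CPM of egg-2 lay inside the range of BW25113. In yghZ all 9 log2 fold changes were negative as well, with a median of -0.41 and a range of -1.14 to -0.06. There perm-2 and perm-4 lay below BW25113 in all 3 libraries (2 of 9 members, where 5.82% of all genes did). cpg-1 did so in purH (where 5.59% of all genes did) and perm-4 in yjgU (10.2%). No member did so in crl (2.82%), iaaA (2.25%), ycdC (2.03%), ycgJ (3.48%) or ypdF (1.33%). Medians in the remaining 6 diets ran from -0.52 in ycgJ to -0.08 in iaaA. Of the 9 log2 fold changes, 8 were negative in crl, ycdC and yjgU, 7 in ycgJ, and 6 in iaaA and ypdF.

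By mean CPM, torY was lowest of the 11 diets for 8 members. For cpg-1 purH (1394 ± 955 CPM) and yccU (1426 ± 436 CPM) were below torY (1480 ± 761 CPM; SD, n = 3 each). Without purH replicate 1 the purH mean of cpg-1 was 1879 CPM (n = 2), above torY. The highest mean was in iaaA for chs-1 (102 CPM, libraries from 86.8 to 131 CPM), in ycdC for egg-2 (89.2 ± 27.8 CPM) and in ypdF for egg-3 (102 ± 31.3 CPM). For egg-1, cbd-1, perm-2, perm-4, cpg-1 and cpg-2 no mutant mean exceeded that of BW25113. Neighbours in this order could mostly not be told apart. Of 10 neighbouring pairs of diets per gene, the libraries overlapped in all 10 for 8 genes and in 9 for chs-1, where torY and yccU did not overlap. No gap between neighbours was larger than the sum of their SDs.

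The width of the range over libraries rested on purH replicate 1 for 4 members. Over the 33 libraries the highest library was 11.6 times the lowest for perm-4, 9.41 times for cpg-1, 9.03 times for cpg-2, 7.43 times for cbd-1 and 5.68 times for perm-2. It was 5.19 times for chs-1, 5.08 times for egg-2, 4.59 times for egg-1 and 3.66 times for egg-3. Without purH replicate 1, a selection added after the values were seen, it was 5.42 times for perm-4, 5.27 times for cpg-1, 4.65 times for cpg-2 and 5.62 times for cbd-1, and the other 5 values stayed as given. For perm-2, 16 of the 24 libraries of the other 8 mutants lay below the lowest BW25113 library, and so did 16 for perm-4, 15 for cpg-1 and 13 for cpg-2. It was 9 of 24 for egg-1, 8 for egg-3, 7 for chs-1, 6 for cbd-1 and 1 for egg-2.

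The members did not move as 1 block over the 33 libraries. Pearson correlations of log2 CPM between pairs of members ran from 0.14 to 0.96, with a median of 0.72 over 36 pairs. They are given as descriptions, since the points share diets, library sizes and scaling. Grouped after these values were seen, the genes were placed in 3 sets. chs-1 and egg-2 had r = 0.92 with each other (Spearman rho 0.92), but only 0.14 to 0.27 with perm-2, perm-4, cpg-1 and cpg-2. Those genes had r between 0.85 and 0.95 among themselves. egg-1, egg-3 and cbd-1 had r between 0.92 and 0.96 among themselves, 0.50 to 0.67 with the first set and 0.66 to 0.92 with the second. The paralogs egg-1 and egg-2 had r = 0.67, lower than egg-1 with egg-3 (0.96).

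Over selections of libraries added after the values were seen, the first and second sets each stayed close among themselves. Without torY and yccU the ranges of r of chs-1 and egg-2 with the other sets were lower. With egg-1, egg-3 and cbd-1 the range was 0.373 to 0.558. Without torY and yccU (27 libraries) chs-1 and egg-2 had r = 0.88 with each other and between -0.146 and 0.155 with perm-2, perm-4, cpg-1 and cpg-2, which had r between 0.861 and 0.955 among themselves. Without purH replicate 1 these values were 0.925 for the pair, 0.149 to 0.324 across and 0.854 to 0.940 among the perm and cpg genes. The genes of the vitelline layer were placed in the second set (perm-2, perm-4) and the third (cbd-1). The border between these sets was not sharp. Over 33 libraries cbd-1 had r = 0.66 with perm-2 but 0.92 with cpg-1, above perm-2 with cpg-1 (0.85).

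**Figure D4:**
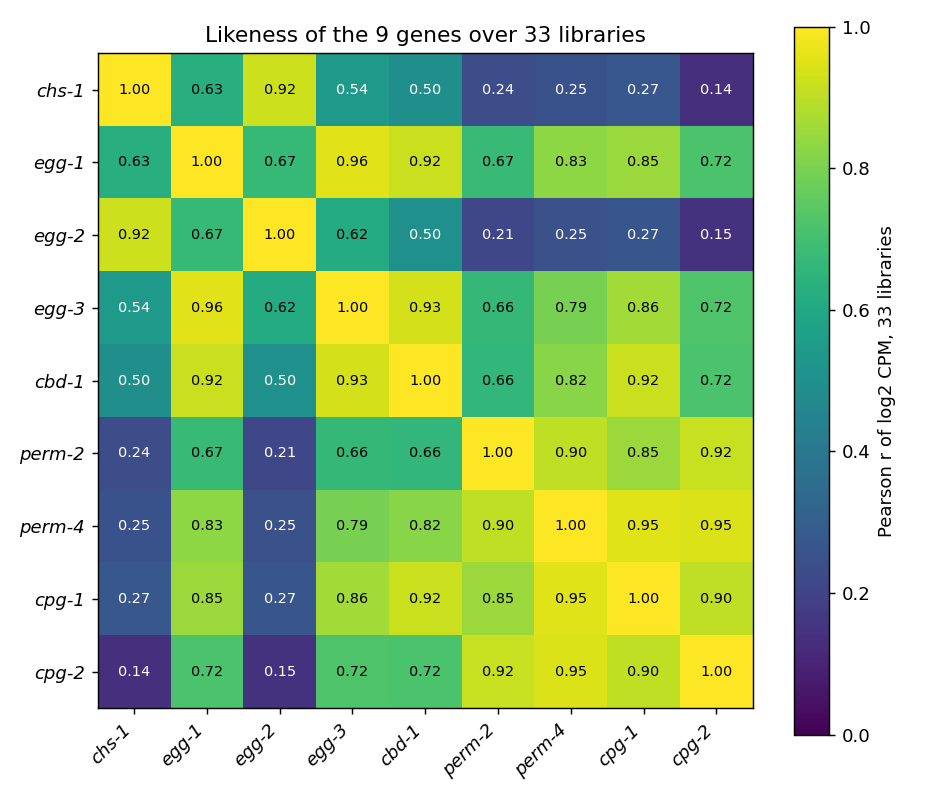
Each cell gives the Pearson r of log2 CPM between a pair of members over 33 libraries. chs-1 and egg-2 stand apart with r = 0.92 between them and r of 0.14 to 0.27 with perm-2, perm-4, cpg-1 and cpg-2.

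The genes most like the mean of the 9 members were sought by Pearson r over 33 libraries among 7946 other genes whose mean reached 5 CPM. The first 10 were mcm-7 (r = 0.99), oma-2 (0.98), C04B4.2 (0.98), F52D2.12 (0.98), lst-1 (0.97), oma-1 (0.97), exos-2 (0.97), Y48A5A.1 (0.97), era-1 (0.97) and C08F8.3 (0.97). mcm-7 encodes a subunit of the replicative helicase, lst-1 a regulator of germline stem cells, and oma-1 and oma-2 are zinc finger RNA-binding proteins of the maturing oocyte. Spearman rho for these genes was 0.96 to 0.98, and r was 0.96 to 0.98 without the libraries farthest from the median, purH replicate 1 and yccU replicate 1. Such likeness was common: 14.3% of the genes compared had r over 0.8. In torY the log2 fold changes of oma-2 and oma-1 were -1.31 and -1.25, and neither passed by edgeR (adjusted p = 0.0855 and 0.0876).

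Other genes of eggshell formation were read from named lists. Of 4 tested enzymes of the hexosamine path that supplies the sugar of chitin, 0 passed in torY by edgeR (median log2 fold change -0.82). gna-2, the acetyltransferase of that path used for eggshell chitin, had -0.83 (SE 0.38, adjusted p = 0.118). Of 9 genes that build chondroitin, 0 passed in torY or yccU, though all 9 log2 fold changes were negative in both (medians -0.77 and -0.56). In the mean of torY and yccU against the other 8 mutants, 7 of these 9 fell and 0 rose, where 18.3% of all genes fell. In torY the chondroitin synthase gene sqv-5 had 41.5 ± 6.21 CPM, against 101 ± 48.9 CPM in BW25113 (SD, n = 3 each). By edgeR its log2 fold change was -1.28 (SE 0.52, adjusted p = 0.0825).

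Of 5 other chondroitin core protein genes tested, 1 rose in torY, where 9.66% of all genes rose. In yccU it was likewise 1, where 2.5% did, and 0 fell in either diet. The gene that rose was cpg-7, at 104 ± 27.6 CPM in torY and 99.5 ± 38.6 CPM in yccU, against 17.8 ± 1.21 CPM in BW25113 (SD, n = 3 each). Its log2 fold change was 2.54 (SE 0.64, edgeR adjusted p = 0.0185) in torY and 2.48 (adjusted p = 0.0399) in yccU, opposite in sign to those of cpg-1 and cpg-2. In torY its adjusted p was 0.0814 and 0.0547 when BW25113 replicates 2 and 3 were left out in turn, and 0.0520 and 0.0567 when torY replicates 1 and 3 were, with log2 fold changes from 2.34 to 2.73 when any 1 library was left out. The yccU call was lost without any 1 of the BW25113 libraries and without yccU replicate 1 or 3 (adjusted p from 0.103 to 0.189). In each of these fits edgeR called 0 genes of the whole table in yccU, and without yccU replicate 2 it called 2171. The yccU call of cpg-7 was also lost without the filter on low counts (edgeR adjusted p = 0.0536). cpg-4 and cpg-3, in the same list, had log2 fold changes of -1.18 (adjusted p = 0.0685) and -0.95 (adjusted p = 0.0776) in torY.

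Of 7 genes for the switch from egg to embryo, 0 passed in torY or yccU by edgeR. cdc-25.2, a phosphatase needed for oocyte maturation, had 28.4 ± 8.92 CPM in torY and 27.8 ± 13.8 CPM in yccU, against 84.0 ± 7.47 CPM in BW25113 (log2 fold changes -1.57 and -1.60, adjusted p = 0.0569 and 0.0851). spe-11, supplied to the egg by sperm, was the 1 gene of this list with positive log2 fold changes (2.55 in torY, adjusted p = 0.111). Of 8 genes of the permeability barrier 0 passed in torY, and perm-1 had -1.44 (SE 0.51, adjusted p = 0.0530). Of 3 genes tested for cortical granule release, 0 passed in torY, and cyk-3 had -0.66 (SE 0.28, adjusted p = 0.0982).

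Markers of oocytes, germline, sperm, embryos and larval cuticle are given beside the members, and their part in the result was not tested. All 18 oocyte markers had counts above 0 in every library. Of these 18, 2 fell in torY by edgeR, where 5.26% of all genes fell, 0 rose, and all 18 log2 fold changes were negative (median -1.17, beside -1.14 for the eggshell genes). Those that fell were cav-1, the caveolin of the oocyte membrane, at 11.5 ± 5.74 CPM in torY and 174 ± 71.7 CPM in BW25113 (log2 fold change -3.92, SE 0.92, adjusted p = 0.0144), and nos-2 (-1.36, SE 0.46, adjusted p = 0.0480). The call of cav-1 was lost without BW25113 replicate 2 (adjusted p = 0.0711) or torY replicate 3 (0.0732). That of nos-2 was lost without any 1 of the 6 libraries (0.0720 to 0.146) and with RLE size factors in edgeR (0.0518). rme-2, the yolk receptor of oocytes, had 247 ± 54.5 CPM in torY, against 571 ± 136 CPM in BW25113 (SD, n = 3 each). The 18 oocyte markers summed to 3847 to 5534 CPM in torY and 2935 to 7526 CPM in yccU, against 8704 to 11566 CPM in BW25113. Their negative direction was not particular to torY. All 18 log2 fold changes were also negative in yccU, crl, purH, ycdC, ycgJ, yghZ, yjgU and ypdF, and 17 were in iaaA. Medians in these diets ran from -1.06 in yccU and -0.99 in purH to -0.21 in ypdF.

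The eggshell genes were also set against the oocyte markers within the same library. The mean log2 level of the 9 members minus that of the 18 oocyte markers, each relative to the 33 libraries, was -0.03 ± 0.04 in torY and 0.08 ± 0.18 in yccU, against -0.19 ± 0.05 in BW25113 (SD, n = 3 each). The torY libraries (-0.08 to 0.01) lay above those of BW25113 (-0.25 to -0.15). BW25113 had the lowest mean of the 11 diets, and the means of the 10 mutant diets ran from -0.08 in crl and yjgU to 0.17 in purH, so this was not particular to torY.

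Of 20 general germline markers 1 fell in torY and 0 rose, a share near the 5.26% of all genes that fell. It was glp-1, the Notch receptor of the germline stem cell niche (log2 fold change -1.59, SE 0.54, edgeR adjusted p = 0.0467). This call was lost without any 1 of the 6 libraries (0.0517 to 0.162) and with limma on TPM (adjusted p = 0.167). The 20 germline markers summed to 4014 to 5531 CPM in torY, against 7659 to 9759 CPM in BW25113. Of 18 sperm markers in the files (34 were listed) 5 rose and 0 fell in torY, where 9.66% of all genes rose. In yccU 1 rose, where 2.5% of all genes did. The sperm markers summed to 3989 to 6515 CPM in torY and 3496 to 5172 CPM in yccU, against 602 to 1066 CPM in BW25113. Their median log2 fold change was 2.75 in torY and 2.56 in yccU. It was also positive in the other mutant diets, from 0.23 in crl to 1.66 in yjgU, except in ycdC (-0.48). At most 3 of the 18 were at 0 in any library. Of 28 larval and molting genes 15 rose and 0 fell in torY, and 12 rose and 0 fell in yccU. Their sums were 1215 to 3444 CPM in torY, against 237 to 523 CPM in BW25113. Where 5.26% of all genes fell in torY, 5 of 18 embryo markers tested fell and 0 rose. Their sums, over 20 genes in the files, were 246 to 286 CPM in torY, against 469 to 561 CPM in BW25113, and at most 4 of the 20 were at 0 in any library. Of 13 markers of body muscle and intestine 0 passed in torY, with sums of 11728 to 22515 CPM, against 10245 to 13778 CPM in BW25113. The 6 yolk protein genes, made in the intestine, had a median log2 fold change of -1.50 in torY with 0 called by edgeR. All 6 were negative in each of the 10 mutant diets, with medians of -1.30 in yccU, -1.17 in yghZ and -1.10 in purH, up to -0.26 in iaaA.

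yccU replicate 2 differed from the other yccU libraries in these lists. Its mean log2 level relative to all libraries was 0.12 for the eggshell genes and -0.08 for the larval and molting genes. yccU replicates 1 and 3 stood at -0.98 and -0.45 for the eggshell genes and at 2.56 and 2.43 for the larval and molting genes. In torY the eggshell values were -0.33, -0.87 and -0.73, against 0.31, 0.63 and 0.60 in BW25113. Some single libraries had low eggshell values without high larval values. Among them were purH replicate 1 (-1.27 and -0.99), ycdC replicate 2 (-0.84 and -0.14) and yghZ replicate 1 (-0.90 and 0.15). A link between the eggshell and larval values was not tested.

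**Figure D5:**
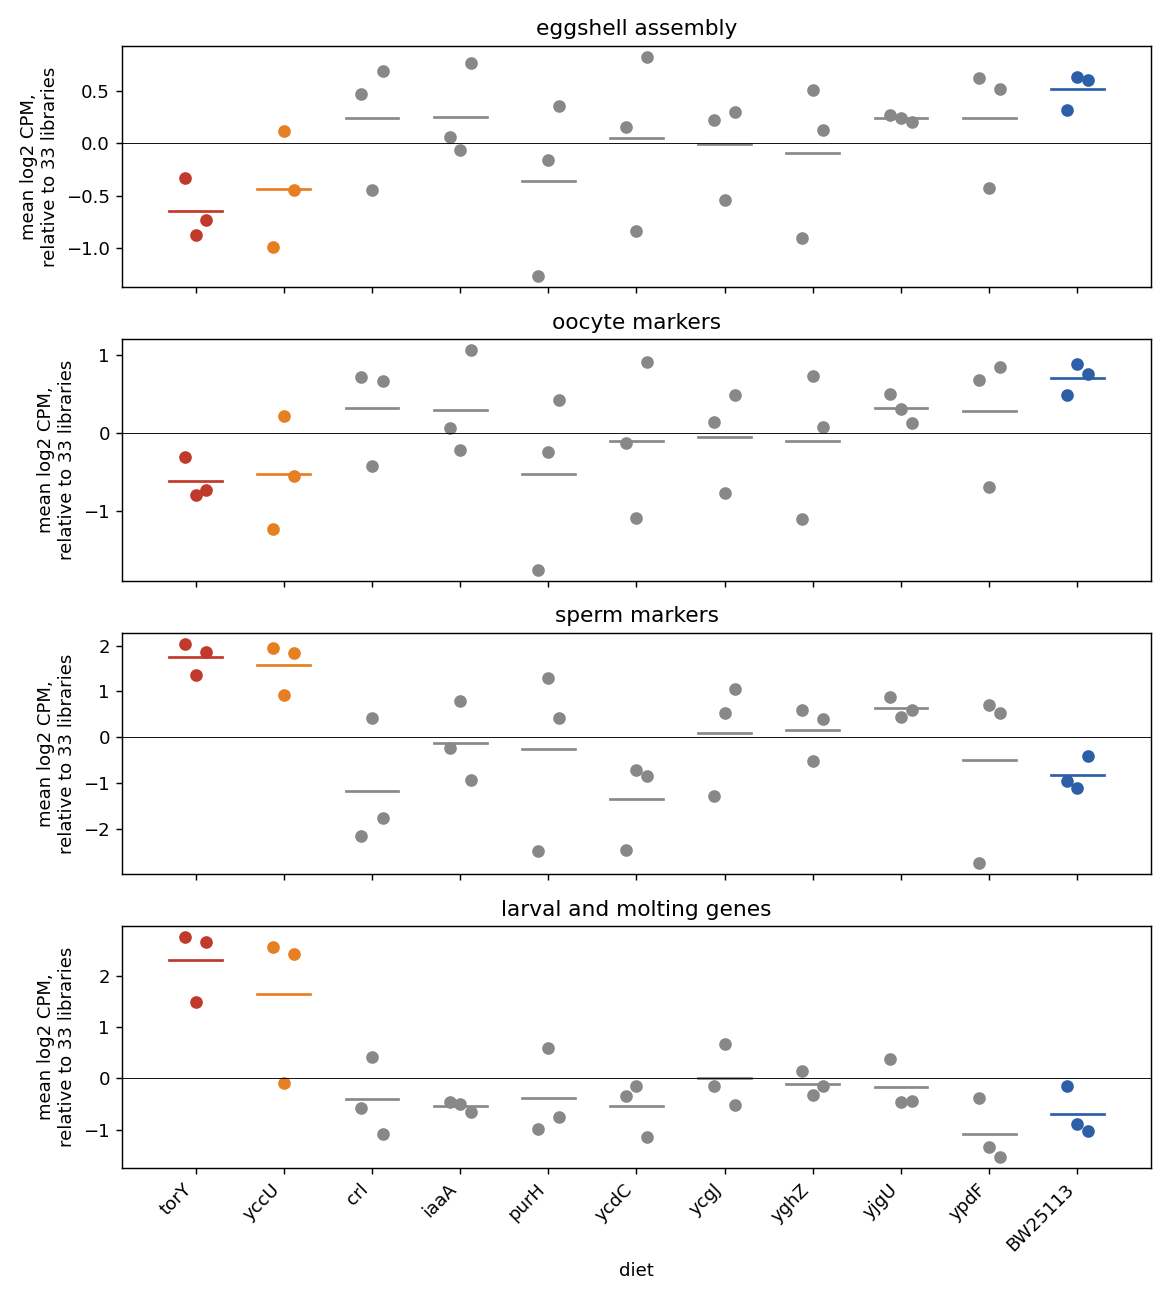
Points are single libraries and lines are means of 3: the mean log2 CPM of each list relative to all 33 libraries. The eggshell and oocyte panels show nearly the same pattern, with torY lowest on average, while sperm markers are highest on average in torY and yccU and larval and molting genes stand above the other diets in all torY libraries and in yccU replicates 1 and 3.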

How the data were processed

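RNA from whole worms on 11 diets (3 libraries each) was measured. The authors deposited, per the file headers, a TPM value and a read count for each gene and library. Between 7.78% and 10.0% of the deposited counts were not whole, so the values the authors deposited are expected counts, rounded here before testing. The submitters' processing notes name HISAT, StringTie, Bowtie2 and WBcel235 without saying what each was used for. Genes were filtered with filterByExpr, leaving out 4115, scaled by TMM (factors 0.661 to 1.90) and fitted by diet in edgeR 4.0.16 (common dispersion 0.198). The SE was taken from the F statistic, whose square root is the log2 fold change over its SE. Scores are mean log2 CPM (prior count 2), centred per gene. Deposited TPM served for levels between genes and, as log2(TPM + 1) in limma 3.58.1, as an alternative, as did DESeq2 1.42.0. Replicate pairs differed by a chi-square of at least 15.7 per degree of freedom (33 pairs), so no library was taken as a duplicate. The members and all lists were chosen with earlier results of these data known. Named are all members, up to 3 genes per list with the lowest p in torY, the 10 genes most like the members, and rme-2, chosen after its values were seen. Sequences are not shown.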

Additional observations from a re-analysis of the deposited data

How the results depend on the processing

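Over the alternatives run (RLE size factors, DESeq2, no filter on low counts, a fit of the compared groups alone, limma on log2(TPM + 1), the replicate block and leaving out each library), all 9 log2 fold changes in torY and in yccU stayed negative. In torY the count of called members was 2, and it was 3 in the fit of the compared groups alone, 1 with limma on TPM and 0 to 2 when 1 library was left out. The number of genes called over the whole table moved as well. It was 2193 in the main torY fit, 3834 in the fit of the compared groups alone, 3404 with DESeq2 and 1501 with limma on TPM. When 1 library was left out it was 0 to 2114. In yccU the count of called members was 0, and 0 to 1 when 1 library was left out (chs-1 passed without yccU replicate 2, adjusted p = 0.0424 by edgeR). Over the whole table edgeR called 385 genes in the main yccU fit and 2171 without yccU replicate 2. For torY and yccU against the other 8 mutants the count of called members was 2, with 3 by DESeq2 and with the replicate block. It was 4 without the filter, 8 with limma on TPM and 2 to 5 when 1 library was left out. For any difference among diets the count of called members was 0 by edgeR and 2 by DESeq2. For both of these comparisons the counts over all genes under the alternatives are not given, so the changes cannot be set against a share. The cause of these changes was not tested. In the other 9 comparisons no alternative called a member. Replicate numbers are shared between diets, and same-numbered libraries of torY and BW25113 had deviations correlated by -0.14, -0.18 and 0.18, so the numbers were not taken as pairs. They exceeded 0.1 in every pair for yghZ only. With the replicate block 2 members were called in torY, 0 in yccU and 0 in yghZ. The members' median log2 fold change in torY was -1.11 with RLE scaling, -1.11 with DESeq2 and -0.96 on TPM. The lowest level of a member in any library was 26.1 CPM.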
